A study of Homo sapiens with 4 samples.

Results

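Genes of the NRF2 response, of glutathione metabolism and of the pentose phosphate pathway were measured in the human hepatoma cell line HepG2 after depletion of the histone demethylase LSD1 (gene KDM1A). The set is a list of 36 gene symbols, and its members are the probe sets whose platform annotation names a single gene from that list. Of the 36 genes, 35 were measured, by 74 probe sets, among 19775 genes on the array. GSTA2 has no value here, because no probe set was annotated to it alone.

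Cells transfected with siRNA-1 or siRNA-2 against LSD1 (LSD1-KD, 1 array each) were compared with cells transfected with an siRNA against GL3 (Cont, 2 arrays), to ask what loss of LSD1 does to metabolic gene expression in liver cancer cells. All 4 cultures grew in medium with 25 mM glucose and 10% serum, were transfected at about 50% confluence and yielded RNA after 4 days. RNA was hybridised to Affymetrix HG-U133 Plus 2.0 arrays, on which each probe set reads a transcript with short probes. Values are log2 RMA values that the authors centred on the median of the 4 arrays, so a value gives the difference of an array from the middle of the 4 and carries no absolute level. Separate cultures for the arrays of a group are not stated in the labels, so p-values reflect spread between arrays, possibly technical. Where the knockdown arrays are pooled, that spread also holds the difference between siRNA-1 and siRNA-2, which are not replicates of a single siRNA. In such bulk samples, fewer cells of a type and less RNA per cell cannot be told apart.

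NRF2, the product of NFE2L2, is a transcription factor that KEAP1 holds for degradation in unstressed cells. Oxidants and electrophiles modify KEAP1, NRF2 accumulates, and with small MAF proteins it binds antioxidant response elements at genes of glutathione synthesis, thioredoxin, quinone and haem detoxification and NADPH supply. Control of NRF2 runs largely through the stability of the protein. Glutathione, made from glutamate, cysteine and glycine, is the main thiol of hepatocytes. The pentose phosphate pathway makes the NADPH that keeps glutathione and thioredoxin reduced.

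KDM1A read -1.55 under siRNA-1 and -1.17 under siRNA-2, against 1.23 and 1.17 on the control arrays. The knockdown arrays therefore carried the depletion their labels state, a difference of -2.56 ± 0.16 (log2, SE, n = 2 arrays per group; adjusted p = 0.0857, limma), which did not pass 0.05 in the pooled test. Of 10 measured hepatocyte and hepatoma markers, ALB, AFP and TTR among them, 10 lay in the brightest of 3 classes. These classes of signal (8 or above, from 4 to 8, and dim below 4 on the log2 scale) were recovered from the numeric precision of the centred values. Of 10 markers of leukocytes, endothelium and fibroblasts, 4 lay in that class (CD14, PECAM1, COL1A1 and PDGFRB). The siRNA-2 array spread most widely over all probe sets, with an SD of 0.384, beside 0.197 for siRNA-1 and 0.164 and 0.154 for the controls. Hybridisation spike-ins, control RNAs added with the hybridisation mix, averaged 0.61 and 0.65 on the knockdown arrays and -0.69 and -0.61 on the controls. The 5' minus 3' value of ACTB, a measure of RNA and labelling quality, was -0.26 and -0.38 on the knockdown arrays and 0.34 and 0.23 on the controls. These technical values split the arrays as the treatment does, and their part in the results below cannot be told apart from it.

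More genes of the set were higher than lower after LSD1 depletion. On both knockdown arrays 19 of the 35 genes (54.3%) lay above both controls, while 23.5% of all genes did so, and 2 of 35 (5.7%) lay below both controls, while 25.3% of all genes did so. The median difference, knockdown minus control, was 0.23 over the 35 genes and -0.00 over all genes. The list was chosen with earlier results of these data known, so these comparisons are no independent test of the set. Of the 35 genes, 34 were in the brightest class, and the shares among all genes of that class were not counted. On the probe sets used, the largest difference between the means of the groups was 2.01-fold (GSTM3). No gene of the set passed the limma test of knockdown against control (Benjamini-Hochberg adjusted over all genes, 0.05), which called 0.00506% of all genes. The smallest adjusted p in the set was 0.14 (AKR1C3), and 13 of the 35 genes had an unadjusted p under 0.05, as did 14.6% of all genes. The count and the median rest in part on probe sets that may read more than a single transcript (suffix _s_at) or related sequences (suffix _x_at). Without these, 14 of the 30 genes still measured were higher on both knockdown arrays and the median was 0.08. Single arrays also weighed on these values: the median was 0.40 without the siRNA-2 array and 0.18 without the siRNA-1 array. Below both controls lay 11 genes without the siRNA-1 array and 4 without the siRNA-2 array. In those runs only 1 knockdown array had to lie below. Without the second control array 4 genes were lower. The share of all genes beyond the controls was not counted in any of these alternative runs.

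**Figure D1:**
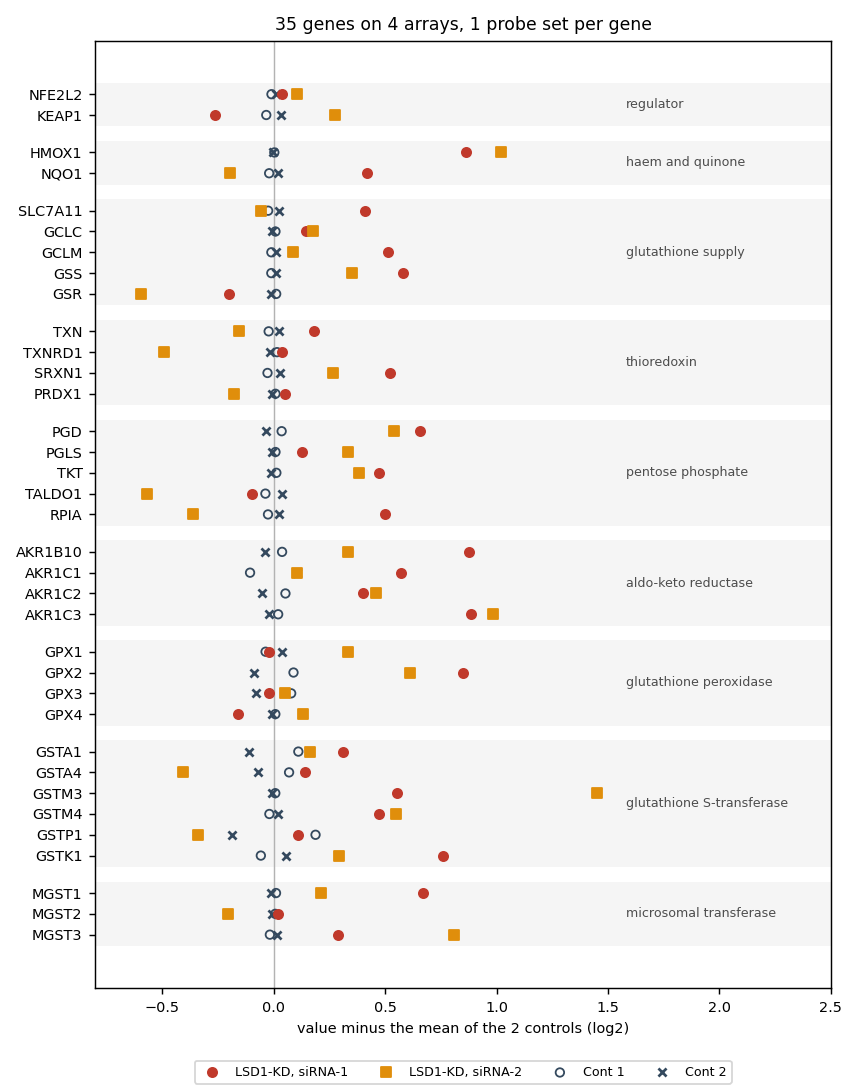
Value on each array minus the mean of the 2 controls (log2) for the 35 measured genes, grouped by role; filled circles are siRNA-1, squares siRNA-2, open circles and crosses the controls. Both knockdown arrays lie to the right of both controls for 19 genes, with HMOX1, AKR1C3 and GSTM3 farthest, and to the left for GSR and TALDO1.

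Each siRNA was also read apart. With siRNA-1, 7 genes were at least 1.5-fold above the control mean and 0 at least 1.5-fold below it, against a background of 3.31% and 2.12% of all genes. With siRNA-2, whose array spread more widely, 5 were above (background 10.0%) and 1 was below (6.54%). HMOX1, AKR1C3 and GPX2 were past 1.5-fold with each siRNA. In the limma model with the siRNAs as separate groups, the spread is estimated from the controls alone, on the assumption that each knockdown array varies as they do. With siRNA-2, 8 genes rose (HMOX1, PGD, TKT, AKR1C3, GPX2, GSTM3, GSTM4 and MGST3) and 3 fell (GSR, TXNRD1 and TALDO1), against a background of 13.3% of all genes higher and 10.1% lower. With siRNA-1, 0 genes passed in this model (background 0%), although 20 of the 35 (57.1%) had an unadjusted p under 0.05, as did 26.6% of all genes. When every probe set was tested, TKT and GPX2 no longer passed for siRNA-2 on the probe sets used, though a second GPX2 probe set did. Knockdown and siRNA comparisons share the same 2 control arrays.

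The regulators themselves showed small or uneven differences. NFE2L2 read 0.01 under siRNA-1 and 0.08 under siRNA-2, against -0.03 and -0.01 on the control arrays, a difference of 0.07 ± 0.10 (adjusted p = 0.778, limma). Both knockdown arrays were above both controls, by less than the standard error, and of its other probe sets 1 was higher and 1 lower on both knockdown arrays. KEAP1, the adaptor that targets NRF2 for degradation, read -0.26 under siRNA-1 and 0.27 under siRNA-2, against -0.03 and 0.03 on the controls. The knockdown arrays lay on opposite sides of the controls, and their mean difference was 0.01 ± 0.21 (adjusted p = 0.996).

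HMOX1, which encodes the haem oxygenase that breaks haem down to biliverdin, iron and carbon monoxide, was higher to a similar degree under each siRNA. It read 0.43 under siRNA-1 and 0.59 under siRNA-2, against -0.43 and -0.44 on the controls. The controls lay within 0.01 of each other and the groups did not overlap. The difference was 0.94 ± 0.11, a 1.92-fold higher level (adjusted p = 0.149). NQO1, the quinone reductase often used as a readout of NRF2, did not share this pattern. It read 0.42 under siRNA-1 and -0.20 under siRNA-2, against -0.02 and 0.02 on the controls, so the knockdown arrays lay on either side. All 3 of its probe sets were higher under siRNA-1, by 0.34 to 0.43, and ranged from -0.44 to 0.01 under siRNA-2.

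Of 5 genes that supply glutathione, 3 were higher on both knockdown arrays and 1 was lower, beside 23.5% and 25.3% of all genes. GSS, the synthetase of the final step, read 0.40 under siRNA-1 and 0.17 under siRNA-2, against -0.19 and -0.17 on the controls. The groups did not overlap, its difference was 0.46 ± 0.13 (adjusted p = 0.271), and its second probe set gave 0.48. GCLM, the modifier subunit of glutamate-cysteine ligase, the rate-limiting enzyme, was 0.51 above the control mean under siRNA-1 and 0.09 under siRNA-2. GCLC, the catalytic subunit, differed by 0.14 and 0.18, while its further probe sets stayed between -0.10 and 0.03. SLC7A11, the cystine importer, read 0.41 above the control mean under siRNA-1 and -0.06 under siRNA-2. Its probe sets disagree: another bright one gave 0.77 and 0.04, and the remaining one, of the middle class, gave -0.72 and -1.25.

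GSR, the reductase that returns oxidised glutathione to its reduced form, went the other way. It read -0.09 under siRNA-1 and -0.49 under siRNA-2, against 0.12 and 0.09 on the controls, and it fell in the test of siRNA-2 alone (-0.59 ± 0.07, adjusted p = 0.0259). Both knockdown arrays were below both controls, but its second probe set read 0.34 above the control mean under siRNA-1 and -0.49 under siRNA-2.

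The thioredoxin genes showed no common direction. SRXN1, the sulfiredoxin that repairs overoxidised peroxiredoxins, was higher with both siRNAs (0.52 and 0.27 above the control mean). TXNRD1, thioredoxin reductase, differed by 0.04 under siRNA-1 and fell by 0.49 under siRNA-2 (SE 0.07, adjusted p = 0.0335). TXN, thioredoxin, read 0.18 and -0.15, and PRDX1, a peroxiredoxin that removes hydrogen peroxide, 0.05 and -0.18. For TXN, a further probe set was higher on both knockdown arrays, at 0.64 and 0.49.

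The pentose phosphate genes did not share a direction: 3 of 5 were higher on both knockdown arrays and 1 was lower. The shares of all genes were 23.5% and 25.3%. PGD, the 6-phosphogluconate dehydrogenase that yields NADPH in the oxidative branch, read 0.37 under siRNA-1 and 0.25 under siRNA-2, against -0.25 and -0.32 on the controls. The groups did not overlap, with a difference of 0.60 ± 0.11 (1.51-fold, adjusted p = 0.206), and its 2 other probe sets, both dim, gave -0.11 and -0.07, so that the average of the probe sets was 0.14. PGLS, the lactonase of the same branch, was higher by 0.13 under siRNA-1 and 0.33 under siRNA-2, though another of its bright probe sets was lower (-0.23 and -0.18). TKT, the transketolase that links the pathway to glycolysis, read 0.27 and 0.19 with the siRNAs, against -0.19 and -0.21 on the controls. Its difference was 0.43 ± 0.10 (adjusted p = 0.254) and its groups did not overlap. That value comes from an _s_at probe set, and the TKT probe set without a suffix, of the middle class, gave -0.00; the average of its probe sets was 0.24.

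TALDO1, transaldolase of the non-oxidative branch, read -0.03 under siRNA-1 and -0.50 under siRNA-2, against 0.03 and 0.10 on the controls. It lay below both controls on both knockdown arrays and fell in the test of siRNA-2 alone (-0.57 ± 0.08, adjusted p = 0.032). RPIA, the ribose-5-phosphate isomerase, was split by siRNA. It read 0.50 under siRNA-1 and -0.36 under siRNA-2, against -0.03 and 0.03 on the controls, and it is the single gene of the set called lower under siRNA-2 than under siRNA-1 (-0.86 ± 0.08, adjusted p = 0.0434).

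All 4 aldo-keto reductases, enzymes that reduce carbonyls and steroids with NADPH, had a positive difference with each siRNA on the probe sets used. Of all genes, 30.8% did so. AKR1C3 read 0.43 under siRNA-1 and 0.53 under siRNA-2, against -0.43 and -0.47 on the controls. With no overlap, the difference was 0.93 ± 0.10, 1.91-fold (adjusted p = 0.14). AKR1B10, which reduces retinal and lipid aldehydes and is often raised in hepatocellular carcinoma, read 0.69 and 0.15 with the siRNAs, against -0.15 and -0.22 on the controls. Its difference, 0.61 ± 0.21 (adjusted p = 0.324), was carried mostly by siRNA-1, at 0.88 against 0.33 for siRNA-2.

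AKR1C2 read 0.17 under siRNA-1 and 0.23 under siRNA-2, against -0.17 and -0.28 on the controls, a difference of 0.43 ± 0.11 (adjusted p = 0.255). Its single probe set without a suffix, which is dim, gave 0.03 with overlap. AKR1C1 read 0.47 and -0.00 with the siRNAs, against -0.21 and 0.00 on the controls, so its groups overlapped on the probe set used. An AKR1C1 probe set without a suffix, of the middle class, differed from the control mean by -0.30 under siRNA-1 and 0.36 under siRNA-2. The dim one without a suffix differed by 0.17 and 0.09. The AKR1C1 _x_at probe sets gave 0.45 and 0.52 for knockdown minus control, close to the 0.43 and 0.57 of the AKR1C2 _x_at probe sets. AKR1C1 and AKR1C2 are near-identical in sequence, and such probe sets can read both, so their separate values are uncertain.

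Of the glutathione peroxidases, which reduce peroxides with glutathione, only GPX2 was higher on both knockdown arrays, as were 23.5% of all genes. GPX2, the gastrointestinal form, read 0.50 under siRNA-1 and 0.26 under siRNA-2, against -0.26 and -0.44 on the controls. Its difference was 0.73 ± 0.14 (1.66-fold, adjusted p = 0.211), and a second bright probe set gave 0.56, also with no overlap. GPX1, the abundant cytosolic form, differed from the control mean by -0.02 under siRNA-1 and 0.33 under siRNA-2. GPX3, the plasma form, differed by -0.02 and 0.05, and GPX4, which protects membrane lipids, by -0.16 and 0.13.

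Of the 6 measured glutathione S-transferases, which attach glutathione to electrophiles, 4 were higher on both knockdown arrays (GSTM3, GSTM4, GSTK1 and GSTA1) and 0 lower. Among all genes 23.5% were higher and 25.3% lower. GSTM3 read 0.27 under siRNA-1 and 1.17 under siRNA-2, against -0.27 and -0.29 on the controls. Both knockdown arrays were above the controls, siRNA-2 much further, and it is the single gene of the set called higher under siRNA-2 than under siRNA-1 (0.90 ± 0.08, adjusted p = 0.0418). It was 2.01-fold above control (log2 SE 0.32, adjusted p = 0.308), whereas a second probe set, of the middle class, gave 0.05 and the average was 0.53. GSTM4 read 0.23 and 0.30 with the siRNAs, against -0.26 and -0.23 on the controls. The difference was 0.51 ± 0.10 (adjusted p = 0.219) and the second probe set gave 0.81. Members of the mu class share sequence, and both GSTM4 probe sets are of the _s_at or _x_at kind, so signal from relatives is possible.

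GSTK1, the kappa-class enzyme of mitochondria and peroxisomes, read 0.58 under siRNA-1 and 0.12 under siRNA-2, against -0.23 and -0.12 on the controls. Its groups did not overlap and the difference was 0.53 ± 0.19 (adjusted p = 0.333). GSTA4, active on lipid aldehydes, differed from the control mean by 0.14 and -0.41, and GSTP1, the pi-class enzyme, by 0.11 and -0.34. A second GSTA4 probe set, of the middle class, was higher on both knockdown arrays (0.27 and 0.28). For GSTP1 the controls were 0.38 apart, the widest gap between controls in the set.

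GSTA1, the main alpha-class transferase of liver, gave the largest disagreement between probe sets. On the probe set used it was 0.31 above the control mean under siRNA-1 and 0.16 under siRNA-2. On its other probe set, in the middle brightness class, it read 1.79 under siRNA-1 and 0.47 under siRNA-2, against -0.77 and -0.47 on the controls. That difference, 1.75 ± 0.46 (3.36-fold), was the largest of the 74 probe sets and did not pass when all probe sets were tested (limma, adjusted p = 0.259). Both probe sets placed siRNA-1 above siRNA-2 and both above the controls.

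The microsomal transferases, membrane proteins of the endoplasmic reticulum, were higher on both knockdown arrays in 2 of 3 cases, beside 23.5% of all genes. MGST1 read 0.56 under siRNA-1 and 0.10 under siRNA-2, against -0.10 and -0.12 on the controls, a difference of 0.44 ± 0.18 (adjusted p = 0.378). Of its 4 further probe sets, 3 were higher on both knockdown arrays, and the dim one was near 0; the average of all was 0.28. MGST3 read 0.14 and 0.65 with the siRNAs, against -0.17 and -0.14 on the controls, a difference of 0.55 ± 0.20 (adjusted p = 0.338) with no overlap. Its probe sets disagree in size: the _x_at probe set gave 0.26, with siRNA-1 (0.38) above siRNA-2 (0.14), the dim one without a suffix gave 0.08 with overlap, and the average of all 3 was 0.30. MGST2, which can also make leukotriene, differed from the control mean by 0.02 and -0.21.

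**Figure D2:**
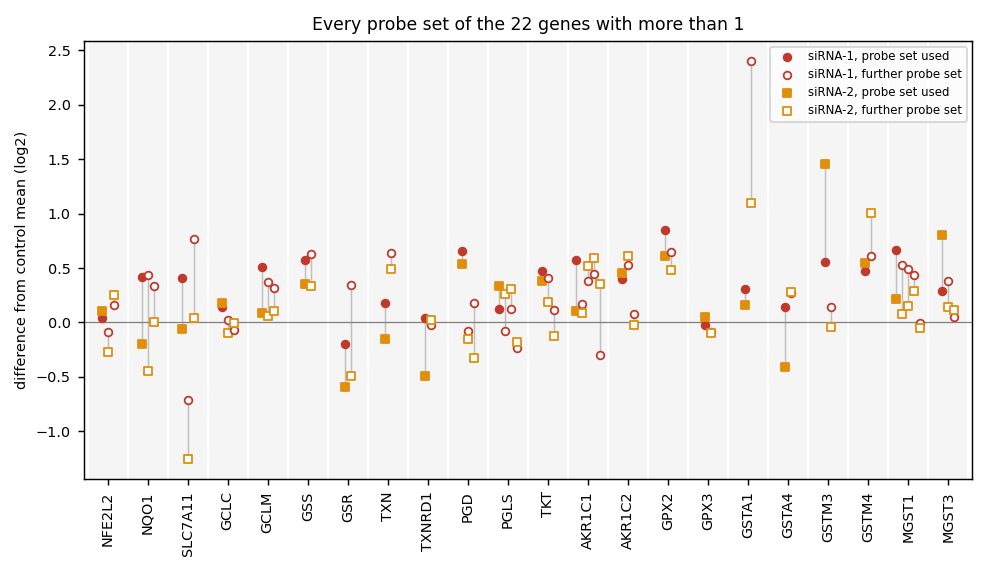
Difference from the control mean (log2) on every probe set of the 22 genes with more than 1, circles for siRNA-1 and squares for siRNA-2, filled for the probe set used. The probe sets of GSS, GPX2 and GSTM4 lie on the same side of 0, while those of GSTA1, SLC7A11 and GSTM3 are far apart.

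Across the set, probe sets of a gene often disagreed. Of the 39 further probe sets, 27 had the sign of the one used. For the genes higher on both knockdown arrays, 13 of 26 further probe sets were higher on both as well and 3 were lower on both. When dim probe sets were left out, 13 of 21 were higher on both. The matching shares for other genes higher on both knockdown arrays were not counted. These counts therefore cannot be read as particular to the set.

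Between the siRNAs, the median difference of the set from control was 0.40 under siRNA-1 and 0.18 under siRNA-2. Lower under siRNA-2 than under siRNA-1 were 22 of 35 genes (62.9%), as were 52.3% of all genes. Among the other genes of the same pathways, described below, the share was 60.3%, near that of the set. The test of the difference called 1 gene higher under siRNA-2 (GSTM3, background 4.03%) and 1 lower (RPIA, background 2.85%). Neither passed when every probe set was tested (adjusted p = 0.0543 for GSTM3 and 0.0564 for RPIA), and 0 genes of the set passed without _x_at and _s_at probe sets. NQO1 (-0.62, adjusted p = 0.0543), GSTA4 (-0.55), AKR1B10 (-0.54) and TXNRD1 (-0.53) came next on the lower side without passing. KEAP1 (0.54) and MGST3 (0.52) came next on the higher side. For 13 of the 35 genes (37.1%) the siRNAs gave differences of opposite sign, a share near the 35.5% of all genes.

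**Figure D3:**
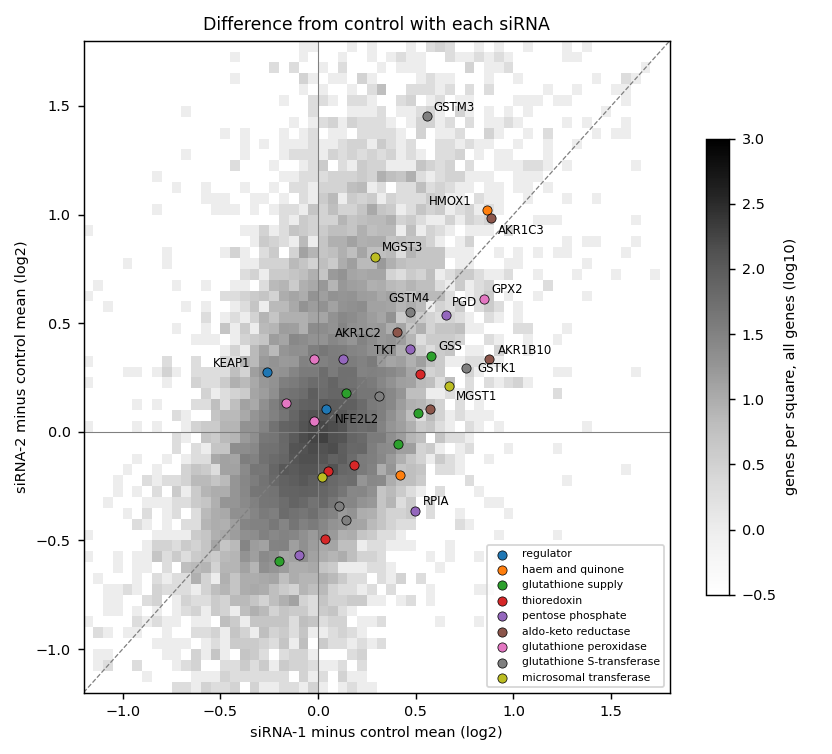
Difference from the control mean (log2) under siRNA-1 on the horizontal and siRNA-2 on the vertical axis, for the 35 genes (coloured by role) over a density of all genes in grey; 445 genes lie outside the plotted range. HMOX1, AKR1C3, PGD and TKT lie near the diagonal, GSTM3 and MGST3 well above it, and AKR1B10, MGST1 and RPIA below it.

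**Figure D4:**
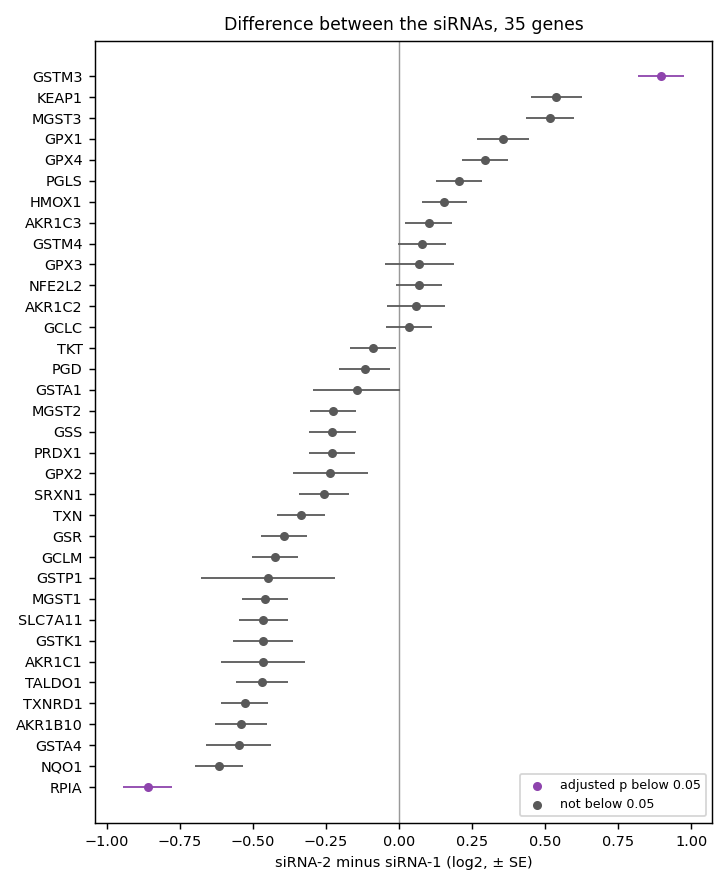
Contrast of the siRNAs for each of the 35 genes, siRNA-2 minus siRNA-1 (log2), points with bars of ± SE from the model whose spread comes from the 2 controls. GSTM3 at 0.90 and RPIA at -0.86 are the genes with adjusted p below 0.05, and 22 genes lie below 0.

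Promoters were searched for the core of the antioxidant response element, TGACNNNGC, on both strands, because these genes include many direct targets of NRF2. RefSeq windows (GRCh38.p14, 250 bases before to 50 after the start) were at hand for 29 of the 36 genes, and 8 of them (27.6%) held a match, as did 16.1% of all genes with a window. Genes with more than 1 window counted once. The matches are shown 5′ to 3′ on the strand that reads the core, core in capitals, so that the elements of genes that were and were not higher can be compared. Those of genes higher on both knockdown arrays were:
GPX2 (chr14:64942849-64942877, + strand): atccccaggaTGACTTAGCaaaaacaggt
GCLM (chr1:93909446-93909474, + strand): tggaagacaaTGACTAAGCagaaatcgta
PGD (chr1:10398853-10398881, - strand): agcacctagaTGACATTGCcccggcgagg
MGST1 (chr12:16347135-16347163, + strand): ggggacatcgTGACAAAGCaaattgtctg
Those of genes whose groups overlapped were:
GSTP1 (chr11:67583736-67583764, + strand): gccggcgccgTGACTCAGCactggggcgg
TXNRD1 (chr12:104286920-104286948, - strand): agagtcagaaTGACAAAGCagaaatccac
KEAP1 (chr19:10502784-10502812, + strand): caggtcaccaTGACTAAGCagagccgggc
GSTA4 (chr6:52995275-52995303, - strand): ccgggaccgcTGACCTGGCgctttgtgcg

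TXNRD1 held 2 further matches near another start and KEAP1 held 1 more. Counted from the start site, the core lay at -122 in GPX2, at -66 in GSTP1 and at 31, inside the transcript, in MGST1. A match is a run of letters and was not tested for binding. Sequence outside the windows was not searched, so no match does not mean that a gene has no element. Of the 8 genes with a match, 4 were higher on both knockdown arrays and 0 lower. Of the 21 with a window and no match, 12 were higher, 1 was lower, 7 overlapped and GSTA2 had no value. Of all genes measured, 23.5% were higher on both knockdown arrays and 25.3% lower. The identical core TGACAAAGC stood in MGST1, higher on both arrays, and in TXNRD1, which fell under siRNA-2. Likewise GCLM and KEAP1 shared TGACTAAGC. HMOX1, GSS, SLC7A11, AKR1B10, GSR, PRDX1 and MGST2 had no window in the table.

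Other genes of the same pathways were read from a list of 68, of which 63 were measured. Of these 17 (27.0%) were higher on both knockdown arrays and 12 (19.0%) lower, close to the 23.5% and 25.3% of all genes, with a median difference of 0.02. None of the 63 passed the test of knockdown against control (0 by limma). An unadjusted p under 0.05 was found for 13 (20.6%), beside 14.6% of all genes. Under siRNA-2 alone 15 rose (23.8%, beside 13.3% of all genes) and 11 fell (17.5%, beside 10.1%). RBKS, the ribokinase that feeds ribose into the pathway, differed from the control mean by 0.73 under siRNA-1 and 1.10 under siRNA-2. IDH1, the cytosolic NADPH-forming isocitrate dehydrogenase, differed by 0.80 and 0.72, and EPHX1, the microsomal epoxide hydrolase, by 0.80 and 0.66. GPX7 (0.58 and 0.78), GSTM2 (0.60 and 0.68), UGDH (0.74 and 0.45) and GSTZ1 (0.02 and 1.07) were also higher on both knockdown arrays.

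On the lower side stood MAFF, a small MAF partner of NRF2, at -1.05 under siRNA-1 and -0.84 under siRNA-2 (difference -0.95 ± 0.13, adjusted p = 0.182). ABCC1, an exporter of glutathione conjugates, read -0.19 and -1.67 relative to the control mean and was called lower under siRNA-2 than under siRNA-1 (adjusted p = 0.0413). OPLAH, the oxoprolinase of glutathione turnover, differed by -0.23 and -0.86, and ALDH3A1, an aldehyde dehydrogenase read by a dim probe set, by -0.31 and -0.77.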

How the data were processed

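Arrays were grouped by sample title. The authors made the deposited values with RMA, per the submitters' processing notes, which give no version or settings. They were taken as log2, the scale of RMA; the authors' deposited log2 values have a median of 0 over the 4 arrays in each of 54675 probe sets (largest deviation 5.0e-07), so levels are gone. Arrays give no counts, and their number limits the precision.

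The platform annotation, updated through gene identifiers, gave 1 gene symbol for 41097 probe sets and several for 1801 (not used); 11777 are unnamed here. Brightness classes hold 26.5%, 37.3% and 34.6% of probe sets from bright to dim. A class follows the lowest array, and chance puts about 1 probe set in 8 a class too high. Each gene was read by its brightest class, then by no suffix before _a_at, _s_at and _x_at, then by identifier. Of the 35 genes, 34 were in the brightest class.

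limma 3.58.1 (R 4.3.3, two-sided, empirical Bayes, Benjamini-Hochberg over 19775 genes, threshold 0.05) compared knockdown with control, and separately 3 groups (siRNA-1, siRNA-2, Cont). The fit was tested on simulated data with equal spread on all arrays and changes larger than any in the set. Changes of the sizes met here and unequal spread were not simulated. Exact permutation over so few arrays has 0.33 as its smallest two-sided p.

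Every array's value is given for NFE2L2, KEAP1, genes whose knockdown arrays both lay beyond both controls with a difference of at least 0.4, and genes whose siRNAs differed by at least 0.8. NQO1, GSR, TALDO1, AKR1C1 and the second GSTA1 probe set were added after their values were seen. Other pathway genes are named at a difference of at least 0.5 with both arrays beyond the controls. Members and lists were chosen with earlier results of these data known. Alternatives were the probe set rule, dim genes, array scaling, robust moderation, a replicate block and leaving out arrays.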

Additional observations from a re-analysis of the deposited data

Results flagged for a closer look

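In the limma model with the siRNAs as separate groups (1 array each, spread from the 2 controls), 2 of the 35 genes differed between siRNA-2 and siRNA-1. GSTM3 was higher under siRNA-2 by 0.90 (adjusted p = 0.0418), although its second probe set read -0.18 for the same difference. RPIA was lower under siRNA-2 by 0.86 (-0.86, adjusted p = 0.0434), and it has 1 probe set. Neither call held when every probe set was tested (adjusted p = 0.0543 for GSTM3 and 0.0564 for RPIA) or when _x_at and _s_at probe sets were dropped, which leaves the RPIA probe set and its difference as they were. Both calls describe these arrays, whose spread over all probe sets was 0.384 under siRNA-2 and 0.197 under siRNA-1.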

How the results depend on the processing

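The median difference of the set was above 0 in each alternative run, from 0.08 once _x_at and _s_at probe sets were dropped, and from 0.18 (no siRNA-1 array) to 0.40 (no siRNA-2 array) when an array was left out. Genes called for knockdown against control ran from 0 to 11 over the arrays left out; the 11 came without the siRNA-1 array, when siRNA-2 stood alone and 4626 of all genes passed. With the replicate block 0 were called and the median was 0.23; 2 pairs cannot show that the shared numbers pair the arrays. Averaging the probe sets of a gene gave 1 gene lower on both knockdown arrays, 1 called for siRNA-1 and 7 called between the siRNAs. Dropping _x_at and _s_at probe sets gave 1, with 6 called for siRNA-2 and 0 between the siRNAs, and TKT turned to -0.0044. Removing dim genes gave 2 calls for siRNA-1, 17 for siRNA-2 and 10 between the siRNAs. Setting array medians to 0 gave 5 calls for siRNA-1 and 7 between the siRNAs. How many of all genes passed these siRNA tests was not counted in the alternative runs. Their call counts therefore cannot be read as particular to the set. Leaving out an array gave 2 to 11 genes lower on every knockdown array left, which was 1 array where a knockdown array was dropped. It also gave -0.26 to 0.27 for KEAP1 and -0.36 to 0.50 for RPIA. Of 158 alternatives for single genes, 146 kept direction and call. The 16 genes counted had no call in the main run, so a kept call means only that the gene still did not pass. Sizes were not compared in this count: GSTM3 ranged from 0.05 to 1.45. The 3-group tests without a control array have no residual degrees of freedom and were not run. Where the construction does not show the cause, the cause was not tested.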
